A study of Mus musculus with 18 samples.

Results

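The regions described here are stretches of accessible chromatin in mouse embryonic stem (ES) cells. They carried a peak in control cultures of the Brg1 and Baf53a lines and none in cultures given tamoxifen to delete either gene. Peaks of all 18 libraries that shared 1 bp or more were merged into 377189 regions. A region was chosen when it held a peak in all 4 ethanol (EtOH) libraries of the Brg1 and Baf53a lines and in none of the 4 tamoxifen (Tax) libraries. This gave 1148 regions, called BAF-lost regions below, out of 43452 regions with a peak in all 4 EtOH libraries (2.64%). The latter are called control-shared regions, and the 23490 of them that also held a peak in all 4 Tax libraries are called kept regions. The choice used presence and absence of peaks in the 8 libraries of the deletion lines, so that these values, and the scores and widths in the EtOH lists, are given as a description. The 10 wild-type libraries entered the choice only through the merging of peaks. With peaks merged over the 8 lists of the deletion lines alone, the rule gave 1155 regions. Of the 1148 BAF-lost regions, 1112 (96.9%) overlapped 1 of these.

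BAF is the mammalian SWI/SNF complex, which uses ATP to slide or evict nucleosomes and so keeps DNA open. Brg1 is its ATPase, and Baf53a is an actin-related subunit that sits with the ATPase. In ES cells the complex acts at enhancers and promoters of pluripotency genes. Topoisomerase II (TOP2) passes one DNA duplex through another to relieve tangles, and BAF is known to aid its binding to chromatin. ICRF-193 holds TOP2 as a closed clamp and blocks its catalytic cycle.

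Accessibility was measured by ATAC-seq: nuclei of sorted viable cells are exposed to a transposase, which cuts open DNA and tags it for sequencing. The Brg1 fl/fl line and the Baf53a fl/- line both carry Actin-CreER, a Cre recombinase that tamoxifen activates, and were exposed to tamoxifen (0.8 µM) or ethanol for 24 h, followed by 48 h without either (2 libraries in each group). The Baf53a line already lacked 1 allele in its EtOH controls. Each Tax library combined deletion with tamoxifen and active Cre. No library came from a Cre line without the fl alleles, so effects of tamoxifen or Cre cannot be told apart from deletion. Wild-type cells were exposed to ICRF-193 (1 µM) or to its solvent DMSO. Treatment lasted 24 h in 2 libraries of each kind and 1 h in 3 of each, the 1 h time being that of the sample titles. Replicates are passages of a line, and p-values therefore measure how far passages and libraries spread. Positions are on mouse build mm9, counted from 1. No mm9 sequence or gene annotation was used here, so regions are named by position alone and their genes, the deleted genes and marker genes of ES cells were not examined.

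Each list gives peak positions and scores without read counts, so the read depth behind a missing peak is unknown. List lengths ran from 46431 peaks in Brg1 Tax replicate 2 to 129880 in DMSO 1 h replicate 3. The 4 EtOH lists held 83918 to 110503 peaks and the other 3 Tax lists 84763 to 88729. A region without a peak was below the authors' calling threshold in that library, which does not show that it was closed. The 10 wild-type lists held no peak on chromosome Y, where the 8 lists of the deletion lines held 38 to 52, and chromosome X held 3.74 to 4.13% of wild-type peaks against 1.79 to 2.10% in the deletion lines. The wild-type line thus differed from the deletion lines in its X and Y signal as well as in its alleles.

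Loss in both lines was met far more often than gain in both. Of the 25865 regions with a peak in all 4 Tax libraries, 46 (0.178%) had none in any EtOH library. In the Brg1 line alone, 13516 of 56649 regions with a peak in both EtOH libraries were lost (23.9%), and in the Baf53a line 6394 of 57189 (11.2%). The BAF-lost regions made up 8.49% of the former and 17.95% of the latter. Among control-shared regions they made up 1148 of the 6471 lost in the Brg1 line (17.7%) and 1148 of the 2038 lost in the Baf53a line (56.3%). These libraries differed in how much they missed. Of the 43452 control-shared regions, Brg1 Tax replicate 2 lacked 39.7%, Brg1 Tax replicate 1 lacked 16.8%, Baf53a Tax replicate 2 lacked 15.4% and Baf53a Tax replicate 1 lacked 9.22%.

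Peaks of the short Brg1 Tax replicate 2 list removed few regions from the choice. Without that list the rule gave 1240 regions, since 92 control-shared regions had their only Tax peak in it. Leaving out a Tax list can only add regions. This run therefore cannot show how many regions were chosen because the short list missed a peak. The rule gave more regions without any other library, because fewer lists then had to agree. It gave 1730 without Brg1 Tax replicate 1, 2648 without Baf53a Tax replicate 1 and 1884 without Baf53a Tax replicate 2. It gave 2043 without Brg1 EtOH replicate 2 and 2982 without Baf53a EtOH replicate 2. With each list reduced to its 46431 top-scoring peaks it gave 541 regions, of which only some were the same, since 140 of the 1148 BAF-lost regions (12.2%) overlapped 1 of these.

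Just outside the rule lay 2910 control-shared regions with a peak in 1 Tax list and 3566 regions with a peak in 3 EtOH lists and no Tax list. The single Tax peak was in Baf53a Tax replicate 1 for 1500 of the 2910 and in Baf53a Tax replicate 2 for 736. The EtOH list that lacked the peak was Baf53a EtOH replicate 2, the shortest of the EtOH lists, for 1834 of the 3566. Strength, the percentile of the authors' score within a list averaged over the EtOH lists that hold a peak, had similar values on both sides of this border. Its median was 48.0 for BAF-lost regions, 52.6 with 1 Tax peak and 40.9 with 3 EtOH peaks. A Tax peak lay within 200 bp of 50 BAF-lost regions (4.36%) and within 1 kb of 210 (18.3%). The same shares were not computed for other regions or for EtOH peaks, so these have no background.

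BAF-lost regions were weaker and narrower than kept regions, and in score stood near the middle of the EtOH lists. Their score percentile in the EtOH lists had a median of 48.0 with quartiles of 37.5 and 58.6, against 83.3 (70.9 to 92.3) for kept regions. It ran from 12.7 to 90.5, and 26 of the 1148 (2.26%) passed the 80th percentile where 57.7% of kept regions did. Control-shared regions were ordered by this percentile into 5 equal classes. The weakest class held 748 BAF-lost regions (8.61% of the class), the next 282 (3.25%), the middle 90 (1.04%), the next 26 (0.299%) and the strongest 2 (0.0230%). Their merged width had a median of 419 bp with quartiles of 336 and 546 bp, against 836 bp (603 to 1118) for kept regions. Only 13 (1.13%) were 1 kb or wider, and 34.5% of kept regions were. The median percentile and the median width were higher with each further Tax list that held a peak. Width is that of the region merged over all 18 lists, so each further peak can only widen it. In single EtOH lists, where this does not apply, the median peak was 172 to 224 bp wide in BAF-lost and 458 to 561 bp in kept regions.

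**Figure D1:**
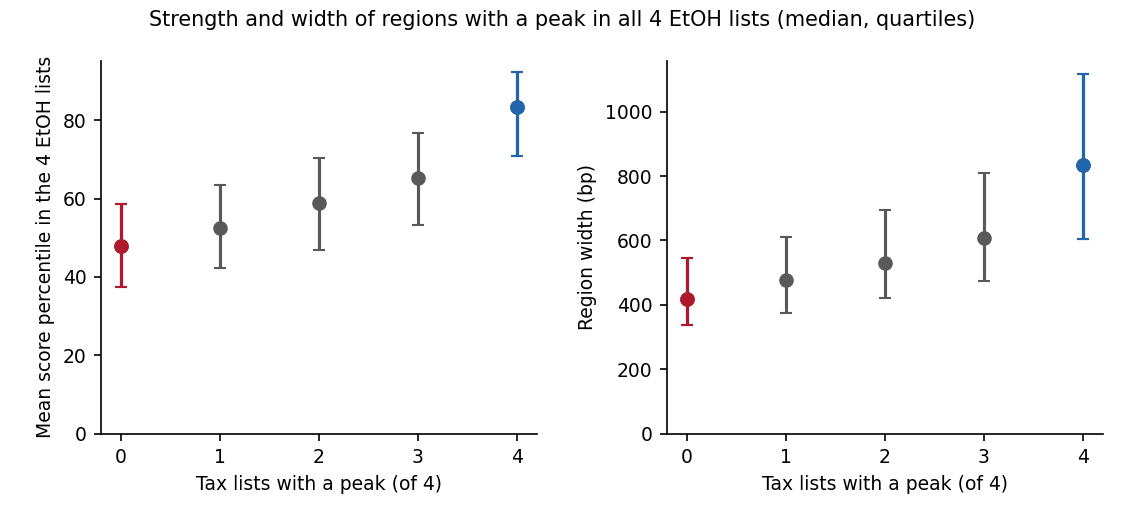
Points give the median and bars the quartiles of the mean score percentile in the 4 EtOH lists (left) and of the merged region width in bp (right), for control-shared regions grouped by the number of Tax lists that held a peak. BAF-lost regions (0 lists, red) had a median percentile of 48.0 and a median width of 419 bp, and kept regions (4 lists, blue) 83.3 and 836 bp.

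The strongest BAF-lost region lay on chromosome 14 from 45470426 to 45470600 and was only 175 bp wide. Its percentile was 94.0 and 81.1 in the Brg1 EtOH libraries and 93.7 and 93.4 in the Baf53a EtOH libraries (mean 90.5 ± 6.29, SD, n = 4). In wild-type cells it was held by 3 of 5 DMSO and 2 of 5 ICRF-193 libraries. It thus stood among the stronger peaks of every EtOH list and was found in 5 of the 10 wild-type lists.

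The next region, chromosome 13 from 40354064 to 40354491, had percentiles of 94.0, 85.1, 93.7 and 87.7 in the 4 EtOH lists. It held a peak in all 5 DMSO lists, at percentiles of 41.1 and 77.2 at 24 h, and in 4 of 5 ICRF-193 lists. Its wild-type peaks spread far more widely in strength than its EtOH peaks, from 11.3 in ICRF-193 24 h replicate 2 to 88.9 in DMSO 1 h replicate 3.

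Chromosome 2 from 21966622 to 21966961 (mean EtOH percentile 88.0 ± 5.40, SD, n = 4) was likewise in all 5 DMSO and 4 ICRF-193 lists. Both chromosome 3, 82692794 to 82693152 (87.7 ± 5.71, SD, n = 4), and chromosome 17, 82395111 to 82395759 (85.3 ± 18.4, SD, n = 4), were present in each of the 10 wild-type lists. The chromosome 17 region had the widest spread of the 10, from 98.0 in Brg1 EtOH replicate 1 to 58.0 in Baf53a EtOH replicate 2. Chromosome 2 from 126683267 to 126683731 (85.9 ± 4.84, SD, n = 4) was in 4 DMSO and 5 ICRF-193 lists. Regions on chromosome 17 from 4092397 to 4092880 (85.7 ± 11.4) and on chromosome 1 from 119712678 to 119713316 (85.5 ± 8.93), 122250932 to 122251419 (85.2 ± 8.48) and 188753173 to 188753469 (84.4 ± 11.7; SD, n = 4 each) were in 7, 8, 9 and 4 wild-type lists. All 10 strongest BAF-lost regions were therefore seen in wild-type cells too, with DMSO and with ICRF-193 at both times, and 8 of them in at least 7 of the 10 lists.

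**Figure D2:**
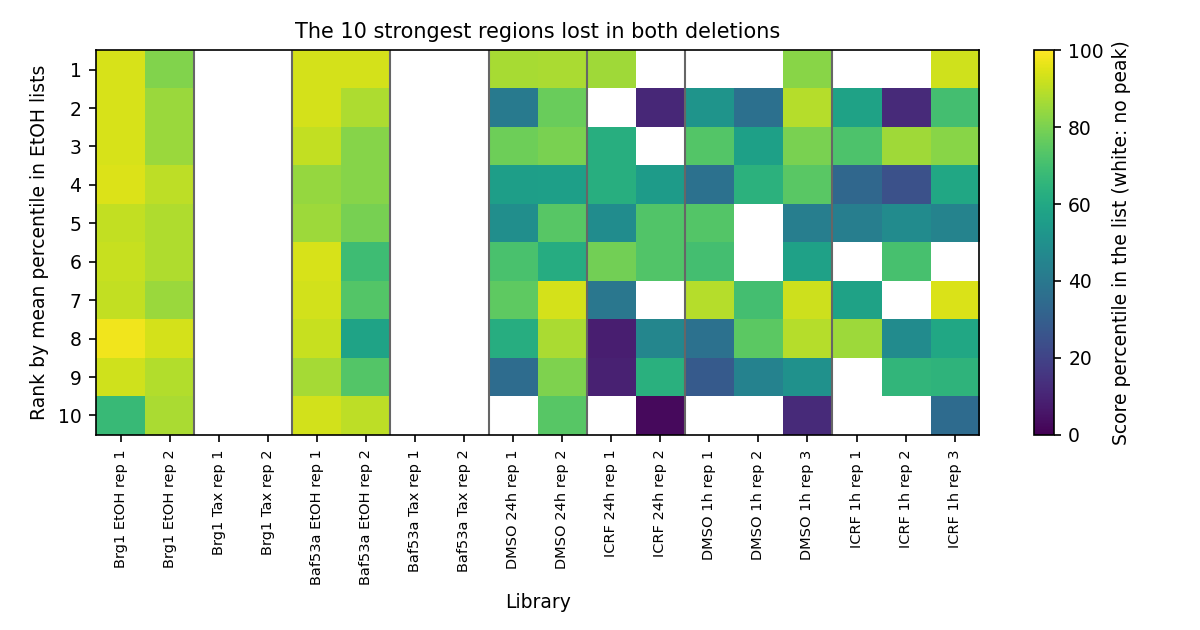
Colour gives the score percentile within each of the 18 lists for the 10 strongest BAF-lost regions, ranked by their mean over the 4 EtOH lists. White marks a list without a peak. The 4 white Tax columns follow from the choice, and the strongest region (rank 1) was held by 5 of the 10 wild-type lists.

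The widest BAF-lost region, on chromosome 4 from 106135976 to 106137274, spanned 1299 bp. It was followed by chromosome 4 from 11296923 to 11298190 (1268 bp) and chromosome 14 from 58705780 to 58706939 (1160 bp). Their EtOH percentiles were 45.9 ± 16.7, 34.0 ± 12.0 and 68.9 ± 8.36 (SD, n = 4 each). The latter pair was present in all 10 wild-type lists and the first in 5.

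In wild-type cells BAF-lost regions were found less often than kept regions in every library. With DMSO for 24 h, 717 of the 1148 (62.5%) held a peak in replicate 1 and 907 (79.0%) in replicate 2. With DMSO for 1 h, 71.6%, 32.5% and 75.9% did in replicates 1 to 3. The 32.5% belonged to a list of 58532 peaks, and the other 4 DMSO lists held 98166 to 129880. Kept regions were found at 97.6% and 98.7% in the 24 h DMSO libraries and at 98.9%, 89.4% and 98.8% in the 1 h DMSO libraries.

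Over the 10 wild-type libraries the difference, BAF-lost minus kept, was -39.8 ± 13.7 percentage points (SD, n = 10), lower in 10 of 10 libraries. A two-sided exact sign-flip permutation test gave p = 0.00195, the smallest that 10 libraries allow, and an adjusted p of 0.00537 over 11 tests. Within the 5 strength classes, weighted by the BAF-lost regions in each, the difference was -27.3 ± 6.79 points (SD, n = 10; exact p = 0.00195, adjusted p = 0.00537). Kept regions had been chosen by peaks in 8 lists and BAF-lost regions by peaks in 4. Lower detection of BAF-lost regions in further lists was therefore likely from the start. The p-values cover only the spread over libraries that read the same chosen regions. Against all other control-shared regions the differences were -32.3 points and, within classes, -19.4 points (exact p = 0.00195 each). Those regions were also set apart by their Tax peaks.

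Where BAF-lost regions did hold a wild-type peak, that peak was narrower and weaker. The choice had already set apart regions that were weaker and narrower in the EtOH lists, so differences in this direction were likely from the start. Neither measure was compared within strength classes. The median width per library was 165 to 245 bp in BAF-lost and 360 to 582 bp in kept regions, a difference of -269 ± 48.5 bp (SD, n = 10; exact p = 0.00195, adjusted p = 0.00537, lower in 10 of 10). The median score percentile was 37.4 to 62.4 in BAF-lost and 76.0 to 88.1 in kept regions. That difference was -30.7 ± 3.67 percentile points (SD, n = 10; exact p = 0.00195, adjusted p = 0.00537, lower in 10 of 10).

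**Figure D3:**
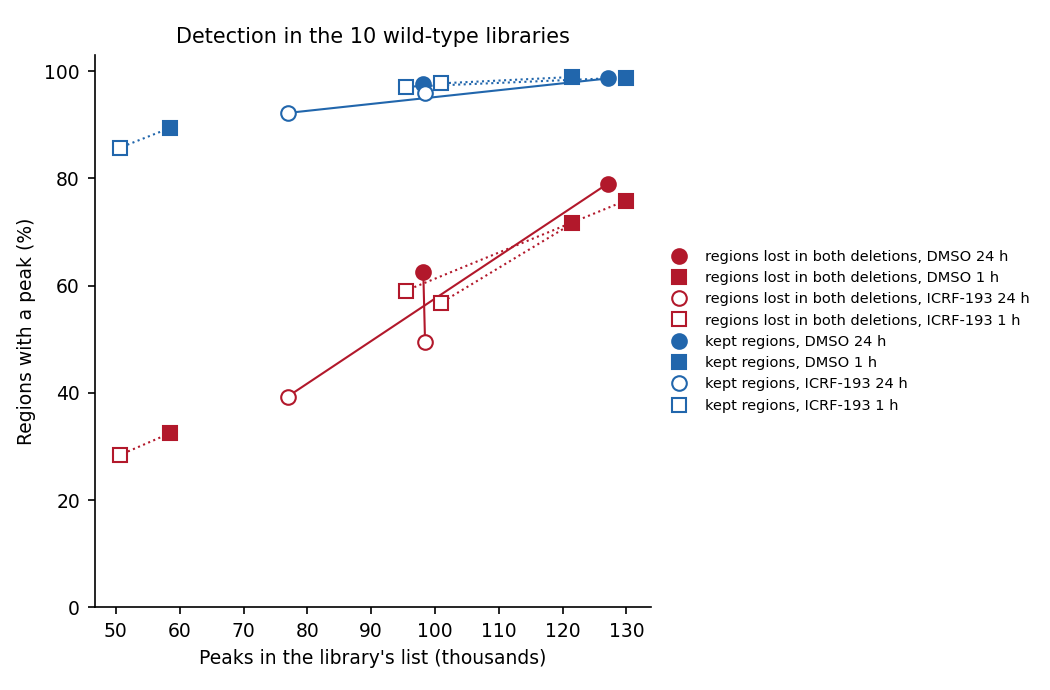
Each point is 1 wild-type library, with the number of peaks in its list (in units of 1000) on the x axis and the percent of BAF-lost (red) or kept (blue) regions that held a peak on the y axis. Filled points are DMSO and open points ICRF-193, circles 24 h and squares 1 h, and lines join libraries with the same replicate number. BAF-lost regions ran from 28.4 to 79.0% and kept regions from 85.7 to 98.9%, both lower in the shorter lists.

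ICRF-193 libraries held peaks in fewer BAF-lost regions than DMSO libraries, but the difference did not pass its test. At 24 h, 569 (49.6%) held a peak in replicate 1 and 451 (39.3%) in replicate 2, both below the DMSO libraries at 62.5% and 79.0%. The means were 44.4 ± 7.27% with ICRF-193 and 70.7 ± 11.7% with DMSO (SD, n = 2 each), a difference of -26.3 points. The two-sided exact permutation p was 0.333 (adjusted p = 0.407), the smallest that 2 against 2 libraries allow. At 1 h, 56.8%, 28.4% and 59.1% held a peak in the 3 ICRF-193 libraries. The first and the last lay inside the range of the DMSO libraries, and 28.4% lay below their lowest value of 32.5%. The means were 48.1 ± 17.1% and 59.99 ± 23.9% (SD, n = 3 each), a difference of -11.9 points (exact permutation p = 0.5, smallest possible 0.1, adjusted p = 0.55).

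Over both times the mean difference was -19.1 points (exact permutation p within times = 0.117, adjusted p = 0.160, 120 arrangements). Without DMSO 1 h replicate 2, the shortest DMSO list, it was -26.0 points with an exact permutation p of 0.0333. With both 1 h libraries of that number left out, it was -21.1 points and the exact p 0.0556, the smallest then possible. The 24 h difference minus the 1 h difference was -14.4 points (exact permutation p = 0.567, adjusted p = 0.567).

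List length moved with these values. In all but 1 of the 5 pairs of equal replicate number the ICRF-193 list was the shorter one. The exception was 24 h replicate 1, with 98440 peaks against 98166 in DMSO, and there the difference was -12.9 points for BAF-lost and -1.60 for kept regions. The file names of all replicate 1 libraries share a prefix that the others lack. Within that prefix the differences were -12.9 points at 24 h and -14.8 at 1 h, and in the others -39.7 at 24 h and -4.09 and -16.8 at 1 h. With equal numbers of top-scoring peaks, 76898 per list at 24 h and 50611 at 1 h, and the same 1148 regions, the differences were -17.9 points at 24 h, -1.60 at 1 h and -9.73 over both (exact permutation p = 0.1 for the last). Both differences were smaller with levelled lists, which were cut to different lengths at the 2 times. At 24 h the libraries then stood at 55.3% and 62.4% in DMSO against 42.7% and 39.3% in ICRF-193.

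Relative to kept regions the ICRF-193 difference of BAF-lost regions was -16.0 points over both times (exact permutation p = 0.1, adjusted p = 0.157). Kept regions were at 98.1% and 95.7% with DMSO at 24 h and 1 h, so that their own fall in points was limited. On the log-odds scale the sign turned, with a difference of 0.0819 (exact permutation p = 0.633). Within strength classes it was -8.97 points (exact permutation p = 0.0667, adjusted p = 0.122). With wild-type lists of equal length they were -7.68 and -5.63 points (exact permutation p = 0.167 each). Without DMSO 1 h replicate 2 they were -21.3 and -10.9 points (exact permutation p = 0.0167 each), and in the other comparisons with 1 library left out the exact p stayed above 0.05 for both. In the weakest class 65.6% of BAF-lost regions held a peak with DMSO for 24 h and 41.3% with ICRF-193, and kept regions of that class stood at 88.9% and 74.0%, which are log-odds changes of -1.02 and -1.03. In the next class the values were 77.5% and 49.1% for BAF-lost and 95.3% and 85.0% for kept regions. The 24 h log-odds changes there were -1.36 for BAF-lost and -1.31 for kept regions, and in the middle class -2.08 and -1.40. At 1 h kept regions changed more on this scale in each of these classes. From the weakest to the middle class the values, BAF-lost first, were -0.50 and -0.73, -0.72 and -0.80, and -0.39 and -0.68.

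In percentage points the change with ICRF-193 was smaller in control-shared regions with more Tax peaks, which were also nearer to full detection with DMSO and had less room to fall. At 24 h it was -26.3 points with no Tax peak, -23.8 with a peak in 1 Tax list, -20.2 in 2, -13.2 in 3 and -4.02 in all 4. At 1 h the same groups gave -11.9, -10.9, -8.46, -6.32 and -2.21 points. The order did not hold in replicate 2 at 1 h, where the value was -4.09 points without and -8.10 with 3 Tax peaks. On the scale of log-odds (natural log of the share with a peak over the share without) that order did not hold. There the 24 h changes were -1.14, -1.16, -1.26, -1.21 and -1.18 from no Tax peak to 4, and the 1 h changes -0.54, -0.60, -0.61, -0.67 and -0.67. At 1 h the order was thus reversed, with the smallest change in BAF-lost regions.

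**Figure D4:**
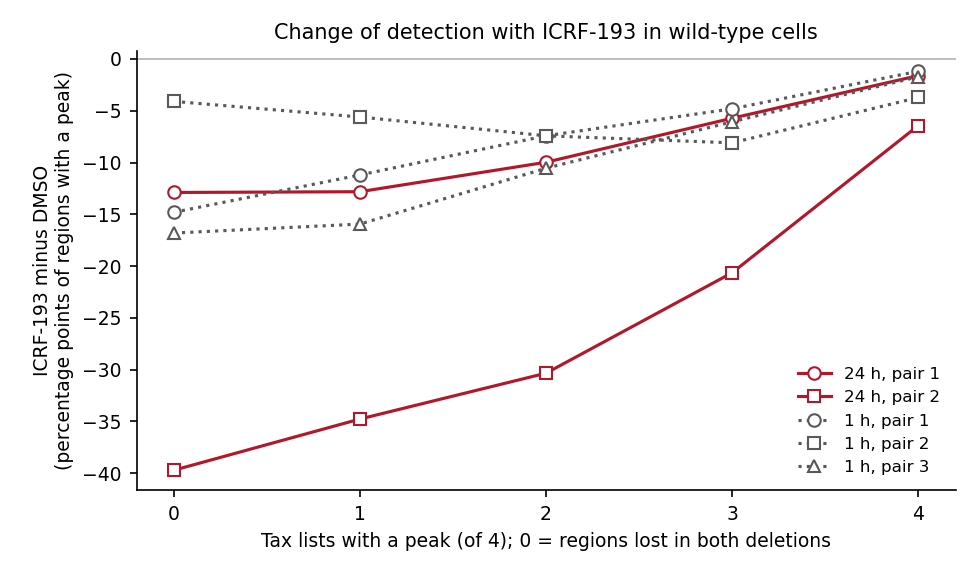
Lines give the ICRF-193 minus DMSO difference in the percent of regions with a peak, in percentage points, for each pair of wild-type libraries with the same replicate number. The x axis gives the number of Tax lists that held a peak, with BAF-lost regions at 0. At 0 the pairs ran from -39.7 to -4.09 points and at 4, where detection with DMSO was near full, from -6.43 to -1.18.

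Of the 629 BAF-lost regions with a peak in both DMSO 24 h libraries, 148 (23.5%) had none in either ICRF-193 24 h library. Over all regions with a peak in both DMSO libraries this share was 15.5%, and over control-shared regions it was 4.86%. By 5 equal classes of DMSO 24 h percentile, from weak to strong, 40.0%, 28.9%, 19.3%, 8.41% and 0% of BAF-lost regions were lost, against 40.3%, 22.7%, 11.2%, 3.1% and 0.175% of all regions. The share was thus near the background in the weakest class and above it in the next 3, on 120, 201, 171 and 107 BAF-lost regions. It was 47.7% with ICRF-193 24 h replicate 1 left out, when 1 missing list is enough. At 1 h, 13 of 315 (4.13%) with a peak in all 3 DMSO libraries had none in any ICRF-193 library, where the background was 2.28% and the share of control-shared regions 0.411%. Gains with ICRF-193 numbered 7 of 327 at 24 h (2.14%, background 5.46%) and 4 of 226 at 1 h (1.77%, background 0.375%).

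The BAF-lost regions that were also lost with ICRF-193 at 24 h and had the strongest DMSO 24 h peaks were not the strongest in EtOH. The first, chromosome 18 from 67892000 to 67892265, had percentiles of 82.0 and 86.5 with DMSO for 24 h and a mean of 62.3 ± 13.5 in EtOH (SD, n = 4). The next was chromosome 11 from 81007336 to 81007718, with a DMSO 24 h percentile of 83.5 ± 7.60 (SD, n = 2). It was followed by chromosome 13 from 3530316 to 3530810 (79.3 ± 7.70), chromosome 8, 130088374 to 130088840 (79.2 ± 0.986), and chromosome 15, 88746644 to 88747185 (77.0 ± 2.40; SD, n = 2 each). A peak was present for all 5 in at least 1 ICRF-193 library at 1 h. The chromosome 15 region held one in all 3, the chromosome 11 region in 1 and the others in 2.

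Detection of single BAF-lost regions over the wild-type lists varied widely. A peak was found in all 10 lists for 94 (8.19%) and in none for 40 (3.48%), where 76.9% of kept regions were in all 10. All 5 DMSO lists held 270 of them (23.5%) and all 5 ICRF-193 lists 140 (12.2%). More DMSO than ICRF-193 lists held 691 (60.2%), fewer held 140 (12.2%), and the numbers were equal for 317. Over control-shared regions 28.8% were in more DMSO and 7.53% in more ICRF-193 lists. A peak in 3 or more DMSO lists and no ICRF-193 list was found for 47 (4.09%), and the reverse for 2 (0.174%). Over control-shared regions these were 295 (0.679%) and 16 (0.0368%). Among the 40 without any wild-type peak, chromosome 10 from 95762693 to 95763022 was the strongest (EtOH percentile 68.9 ± 15.4). Then came chromosome 2 from 134755308 to 134755606 (66.6 ± 12.5) and chromosome 1 from 142516343 to 142516740 (65.2 ± 15.7; SD, n = 4 each).

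BAF-lost regions lay on all autosomes and on X, and none of the 24 control-shared regions of Y was among them. They made up 2.61% of autosomal control-shared regions (1108 of 42443). Among autosomes the share ran from 1.67% on chromosome 3 (40 of 2391) to 3.52% on chromosome 1. On X it was 4.06% (40 of 985). X regions were not weaker in EtOH, with a median percentile of 77.2 against 72.8 on autosomes, and in the weakest 2 classes the share was 9.18% on X (29 of 316) and 5.87% on autosomes (1001 of 17058).

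The 40 BAF-lost regions on X stood out in wild-type cells, a comparison chosen after the values were seen. They held a peak at 77.5 to 95% in the 5 DMSO libraries and at 65 to 95% in the 5 ICRF-193 libraries. Autosomal BAF-lost regions did at 30.9 to 78.4% and 27.1 to 57.9%, lower than X in each of the 10 libraries. In all 10 lists 17 of the 40 (42.5%) held a peak, against 77 of the 1108 (6.95%). Other X regions moved the same way. Among control-shared regions of the weakest 2 classes, X was found at 75.6 to 98.4% over the wild-type libraries and autosomes at 43.7 to 89.8%, again lower in each. With the larger share of X among wild-type peaks given above, values on X compare lines as well as treatments, and their part in the result was not tested.

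**Figure D5:**
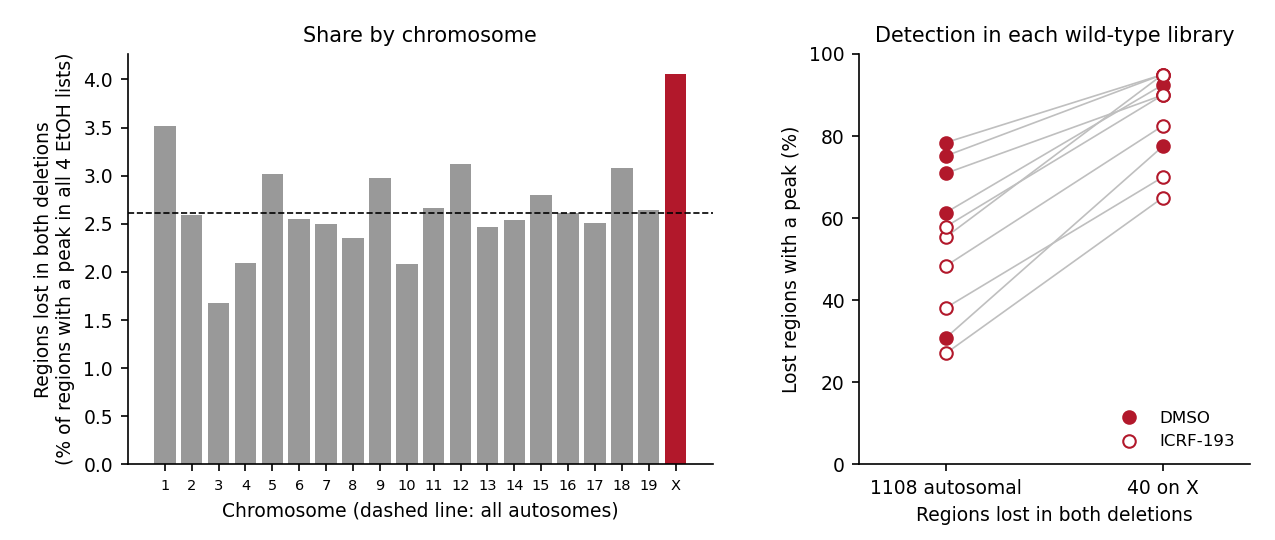
Left, bars give BAF-lost regions as a percent of control-shared regions by chromosome, with X in red and the autosomal value of 2.61% as a dashed line. Right, each line joins the percent of autosomal and of X BAF-lost regions with a peak in 1 wild-type library (filled DMSO, open ICRF-193), and X was higher in all 10.

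BAF-lost regions seldom lay next to one another. With neighbours under 50 kb apart joined, 1078 stood alone and 70 formed 35 pairs, and no run held 3. Another BAF-lost region lay within 50 kb of 6.10% of them, and of 6.17% of all control-shared regions. The nearest control-shared region was itself BAF-lost for 51 (4.44%), against 2.53% over all control-shared regions. That share was 9.05% without Baf53a EtOH replicate 2, 8.76% without Baf53a Tax replicate 1 and 7.17% without Baf53a Tax replicate 2. In those runs the rule also chose more regions. With equal numbers of peaks the share was 3.14%. In the same order, BAF-lost regions then made up 5.74%, 6.09%, 4.34% and 2.03% of control-shared regions, against 2.64% in the main choice. The gap in the pairs had a median of 18.6 kb, and in 3 pairs it was under 1 kb. Since all runs tied at 2, these 3 were picked by their gap after values were seen. On chromosome 1, 192271721 to 192272153 and 192272240 to 192272552 were 86 bp apart and each held peaks in 8 wild-type lists. The others were on chromosome 7 (114678727 to 114679110 and 114679221 to 114679626, 110 bp apart) and chromosome 12 (103091946 to 103092317 and 103092613 to 103092842, 295 bp apart).

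Their surroundings were sparser than those of kept regions. The nearest control-shared region lay at a median of 15195.5 bp (quartiles 5767.5 and 42877 bp), against 11049 bp (4955 and 24590 bp) for kept regions. A kept region lay within 10 kb of 243 BAF-lost regions (21.2%) and of 30.6% of kept regions. The nearest control-shared neighbour was a kept region for 546 (47.6%), and it held a peak in 3.00 Tax lists on average, where the neighbour of a kept region held one in 3.26. These gaps were not tested.

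Regions were also chosen in one line alone and read in the other. BAF-lost regions are by definition among them, so these values are a description. Regions lost in the Brg1 line (13516) held a peak at 79.1% and 52.6% in the Baf53a EtOH libraries and at 53.0% and 43.0% in the Baf53a Tax libraries. Regions kept in the Brg1 line (27080) did at 98.4% and 94.4% in EtOH and at 95.7% and 92.1% in Tax. The Tax minus EtOH difference was -17.9 points for the lost and -2.44 for the kept. Regions lost in the Baf53a line (6394) held a peak at 53.4% and 46.0% in the Brg1 EtOH libraries and at 30.0% and 11.2% in the Brg1 Tax libraries, a difference of -29.1 points against -17.9 for those kept in the Baf53a line (39121).

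The mean over both readings, lost minus kept, was -13.4 points, where kept regions were near full detection in the Baf53a line. It rested on 1 library, since without Baf53a EtOH replicate 1, the longest list of that line, it was 1.10 points. On the log-odds scale it was -0.09.

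The same reading was made between replicates, for regions chosen in the other replicate. All 1148 BAF-lost regions are by definition in both sets below, with a peak in each EtOH list and none in each Tax list. Part of each fall is therefore fixed by the choice, and values without these regions were not computed. Regions with a peak in both replicate 1 EtOH libraries and in neither replicate 1 Tax library (10035) held a peak at 45.3% in Brg1 EtOH and 5.55% in Brg1 Tax of replicate 2, and at 33.6% in Baf53a EtOH and 24.3% in Baf53a Tax. Regions kept in replicate 1 went from 92.6% to 66.6% and from 90.2% to 86.8% in the same libraries. In the other direction, 8032 regions chosen in replicate 2 held a peak at 70.4% in Brg1 EtOH and 41.4% in Brg1 Tax of replicate 1, and at 80.005% and 54.99% in the Baf53a line, where 97.2 to 99.1% of the kept regions were found in the 4 lists. No test was made of this split.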

How the data were processed

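ATAC-seq peak lists of 18 libraries were used, 1 list per library. Per the submitters' processing notes, positions are on mm9, and MACS2, Bowtie 0.12.9 and edgeR 3.12.1 are named, in roles that are not stated. How reads were shifted or filtered and peaks called is not given in the sources used here. Each deposited list has, for each peak, positions (other values) and the authors' own score, whose unit is not stated. The score was used only as a percentile within its list. A peak missing from a list can be a site just under the authors' threshold or one in a shallower library, and a narrow site is more easily missed.

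Peaks of any lists that shared 1 bp or more were merged (Python 3.11.15, numpy 2.4.6, pandas 2.3.3), which gave the same 377189 regions as bedtools 2.31.1. For each library the percent of regions with a peak was computed, and libraries were compared by exact permutation (labels permuted within times or lines, or signs flipped over libraries), with Benjamini-Hochberg adjustment over 11 tests and a threshold of 0.05. Merging, the rule and the tests were tested on simulated lists. Alternatives were other merging rules, fewer peaks, near peaks, other classes and comparators, and each library left out. Wild-type lists of equal length, both 1 h libraries numbered 2 left out, the log-odds scale, the ICRF-193 difference within classes and that between times were added after seeing the data. The reading across lines was among the 11 tests, but is given without a p, since the rule used those lists. The 10 strongest and 3 widest regions, 5 lost with ICRF-193 and 3 without wild-type peaks are named by rule. Region choice and measures were set with earlier results of these data known. Gene lists were not analysed here, since the supplied gene table follows another build.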

Additional observations from a re-analysis of the deposited data

How the results depend on the processing

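The lists hold no read counts, so depth could not be levelled other than by numbers of peaks. The differences between BAF-lost and kept regions in wild-type libraries (detection, detection within classes, width and percentile) kept their direction and passed the exact test under each alternative run. Each alternative still chose BAF-lost regions by missing Tax peaks, so these runs cannot separate the differences from the choice itself. The ICRF-193 difference relative to kept regions turned to 0.0819 on the log-odds scale (exact p = 0.633), where the near-full detection of kept regions no longer limits their change. The difference within classes was not run on that scale. No ICRF-193 difference but that relative to kept regions changed direction in the settings run. The differences over both times passed their exact test only without DMSO 1 h replicate 2 (-26.0 points, -21.3 relative to kept regions, -10.9 within classes). Without the lowest-scoring 20% of peaks the last gave an exact p of 0.05, which is not under the threshold. With single libraries left out, the differences ran from -34.6 to -18.0 points at 24 h, from -25.7 to -2.06 at 1 h, from -26.0 to -14.2 over both, from -21.3 to -12.1 relative to kept regions, from -12.0 to -5.90 within classes and from -24.2 to -0.653 for 24 h minus 1 h. Differences from kept regions ran from -47.5 to -32.8 points (detection), -32.9 to -21.2 (within classes), -278 to -219 bp (width) and -34.5 to -27.1 (percentile). The number of BAF-lost regions ran from 1240 to 2982, the share lost with ICRF-193 at 24 h from 19.6 to 47.7%, and the share with a BAF-lost nearest neighbour from 4.29 to 9.05%. With 46431 peaks per list the number was 541 and the neighbour share 3.14%. That share was 10.8% where a peak within 200 bp counted as detection, and 6.10% had another BAF-lost region within 50 kb. The reading across lines ran from -15.4 to 1.10 points, reversed without Baf53a EtOH replicate 1, and the cause of that was not tested. In the pattern over regions, same-numbered libraries did not deviate together by the limit set (correlations of -0.0114 to 0.118, 1 of 9 pairs above 0.1). These correlations leave out shifts of a whole library, and with 2 libraries per group both pairs give the same value. In percent of BAF-lost regions with a peak, replicate 2 was the lowest at 1 h both with DMSO (32.5%) and with ICRF-193 (28.4%). With a replicate block the exact sign-flip p was 0.5 at 24 h, 0.25 at 1 h, 0.0625 over both times and relative to kept regions, and 0.125 within classes, with values unchanged at -26.3, -11.9, -19.1, -16.0 and -8.97 points, and -13.4 across lines.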

Other observations

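By count, regions that changed in opposite ways in the deletion lines outnumbered those gained in both. Losses also outnumbered gains in each line, with 13516 against 1571 regions in the Brg1 line and 6394 against 2661 in the Baf53a line. The counts therefore do not show which outcome was more frequent than the losses and gains of each line would give. Of 2661 regions gained after Baf53a deletion (a peak in both Tax and neither EtOH library), 154 (5.79%) were lost after Brg1 deletion and 46 (1.73%) gained. Of 1571 regions gained after Brg1 deletion, 68 (4.33%) were lost after Baf53a deletion and 46 (2.93%) gained. Of the 13516 regions lost in the Brg1 line, 3087 were present in each of the 4 Baf53a libraries, and of the 6394 lost in the Baf53a line, 216 were present in each of the 4 Brg1 libraries. These differences were not tested.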
